A study of Mus musculus with 15 samples.

Results

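The interferon regulatory factors (IRFs) and the corepressor gene Irf2bp2 were followed across mouse fat lacking interleukin-33 (IL-33) and wild-type fat. The 9 genes, Irf1, Irf2, Irf3, Irf4, Irf5, Irf7, Irf8, Irf9 and Irf2bp2, were taken by symbol from 37991 gene identifiers, and all 9 were found. Irf2bp2 was included because it was high in the brown knockout libraries, so its values in the brown comparison and in comparisons built on it are given as a description without a test. The study compared C57BL/6 wild-type mice with IL-33-/- mice by stranded messenger RNA sequencing of whole tissue. Brown adipose tissue was taken on postnatal day 0.5 (4 wild-type and 4 knockout libraries), and inguinal white adipose tissue on postnatal day 24 (4 wild-type and 3 knockout libraries, numbered 2 to 4). IL-33 is an alarm cytokine of stromal and epithelial cells that signals through its receptor ST2. Depot and age changed together, so they cannot be told apart. The labels do not tie the libraries to separate animals, so p-values measure the spread between libraries, which may be technical.

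IRFs are transcription factors that bind repeated GAAA elements. IRF3, IRF5 and IRF7 are switched on by kinases downstream of nucleic acid and toll-like receptors and induce interferon genes, while IRF9 is the DNA-binding part of ISGF3, the complex that drives type I interferon targets. IRF1 and IRF2 act as activator and competing repressor at shared sites, and IRF2BP2 is a corepressor found as a partner of IRF2. IRF4 and IRF8 are best known in lymphocytes and myeloid cells, but IRF4 is also made by adipocytes, where fasting and cold raise it and where it acts with PGC-1α on lipolytic and thermogenic genes.

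Libraries held 26059635 to 53923009 counts. Il33, the deleted gene, was at 0.0791 to 0.471 CPM (read counts scaled to library size) in the inguinal knockout libraries against 3.45 to 4.61 CPM in wild type (log2 change -3.73, SE 0.36, edgeR adjusted p = 1.25e-05). In brown fat Il33 was at 0.413, 1.75, 1.41 and 0.594 CPM in the knockout libraries and at 1.82, 3.21, 2.01 and 1.73 CPM in wild type (log2 change -1.08, SE 0.44, edgeR adjusted p = 0.229). The brown groups overlapped in Il33, so the brown libraries are called labelled knockout below. Labelled knockout library 1 stood apart from the other brown libraries: 41 genes passed the brown test with it and 2905 without it. Adipocyte markers summed to 11439 to 20958 CPM over all libraries, and in brown fat 8 skeletal muscle markers summed to 2044 to 3570 CPM. In bulk tissue, fewer cells of a type and less RNA per cell cannot be told apart.

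The 250 bases before the annotated start (RefSeq, GRCm38.p6) are shown for Irf4, Irf7 and Irf2, the 3 members whose knockout effect passed a test of the difference between depots, and for Irf2bp2, chosen for its brown level. The windows lie at chr13:30748983-30749232, plus strand (Irf4), chr7:141266425-141266674, minus strand (Irf7), chr8:46739495-46739744, plus strand (Irf2), and chr8:126593987-126594236, minus strand (Irf2bp2). Capitals mark matches to a searched motif.
Irf4: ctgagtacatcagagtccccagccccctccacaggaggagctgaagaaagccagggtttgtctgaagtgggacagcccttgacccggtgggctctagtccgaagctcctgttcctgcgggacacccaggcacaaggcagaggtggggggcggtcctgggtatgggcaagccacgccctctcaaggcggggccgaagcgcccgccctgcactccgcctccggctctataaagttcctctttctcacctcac
Irf7: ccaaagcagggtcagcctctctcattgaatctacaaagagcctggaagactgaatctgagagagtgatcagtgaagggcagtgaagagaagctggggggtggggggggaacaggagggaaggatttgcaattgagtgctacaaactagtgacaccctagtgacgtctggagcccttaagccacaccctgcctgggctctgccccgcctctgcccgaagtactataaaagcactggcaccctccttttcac
Irf2: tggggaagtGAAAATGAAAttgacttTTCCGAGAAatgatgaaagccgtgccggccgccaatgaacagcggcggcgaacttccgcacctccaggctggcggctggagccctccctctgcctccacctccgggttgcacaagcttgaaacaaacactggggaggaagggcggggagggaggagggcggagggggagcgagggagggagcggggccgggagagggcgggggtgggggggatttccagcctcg
Irf2bp2: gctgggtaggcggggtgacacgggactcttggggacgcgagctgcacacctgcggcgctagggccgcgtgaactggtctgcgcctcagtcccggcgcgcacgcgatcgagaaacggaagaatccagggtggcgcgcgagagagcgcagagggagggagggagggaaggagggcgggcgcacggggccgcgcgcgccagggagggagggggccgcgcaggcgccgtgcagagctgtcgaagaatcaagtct

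Both strands were searched for 6 motifs: the IRF repeat (a pair of GAAA blocks with 2 bases of any kind between them), the gamma-activated site TTCNNNGAA (GAS), the cyclic AMP element TGACGTCA (CRE), the AP-1 site TGANTCA, the FOXO site GTAAACA and the E-box CACGTG. Over 32851 promoter windows of the same length, they were present in 2.98%, 7.02%, 1.55%, 6.75%, 3.17% and 6.02%, in that order. Of the 4 windows shown, Irf2 alone held a match: GAAAATGAAA began 241 bases before the start and TTCCGAGAA 224 bases before it. Among 14 windows of 11 genes of the IRF and IRF2BP families, Irf1 held the gamma-activated site TTCCCCGAA at -90, Irf8 held TTCTCGGAA at -171 and TTCAGAGAA at -153, and Irf2bp1 held TTCCCAGAA at -59. Irf2bpl held TGACGTCA at -30. The IRF repeat was found in Irf2 alone among these 14 windows. A match is only a run of letters in the window, and a missing match says nothing about binding elsewhere.

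On the per-length scale, CPM per kilobase of annotated exon, Irf4 had the highest group mean of the 9 genes in 3 of the 4 groups. It stood at 19.6 in brown wild type, 249.99 in brown labelled knockout, 37.2 in inguinal wild type and 6.54 in inguinal knockout. Irf1 was highest in the inguinal knockout group, at 16.95, and Irf3 was next, at 16.1. Irf8 was lowest in all 4 groups, from 0.474 in brown wild type to 1.11 in inguinal knockout, and Irf5 was next lowest, from 1.04 to 2.74. The remaining members lay between 3.53 (Irf7, brown wild type) and 18.7 (Irf2bp2, brown labelled knockout).

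**Figure D1:**
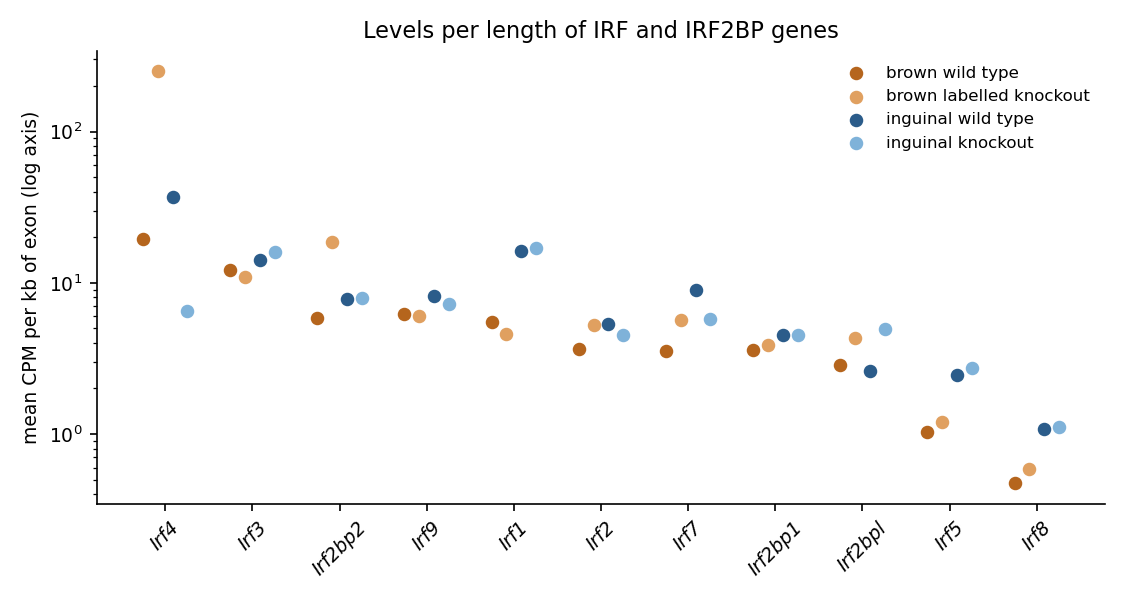
Group means of CPM per kilobase of exon for the 9 genes and for Irf2bp1 and Irf2bpl, on a log axis, in the 4 groups. Irf4 ran from 6.54 in inguinal knockout to 249.99 in brown labelled knockout, the widest range drawn, while Irf8 stayed between 0.474 and 1.11.

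Irf4, the adipocyte and lymphocyte member, varied most between libraries of 1 group. In brown labelled knockout libraries 1 to 4 it was at 46.5, 1964, 749 and 2144 CPM. Brown wild-type libraries 1 to 4 were at 31.0, 89.3, 147 and 116 CPM. Labelled knockout libraries 2, 3 and 4 lay above all 4 wild-type libraries, while library 1 lay among them, so the groups overlapped. The group means were 1226 ± 1001 CPM (SD, n = 4) and 95.9 ± 49.4 CPM (SD, n = 4), a ratio of 12.8. The log2 change was 3.67 (SE 0.97) and did not pass (edgeR adjusted p = 0.122). Without labelled knockout library 1 it was 4.07 and passed (edgeR adjusted p = 0.00605). It did not pass with any other library left out (highest edgeR adjusted p = 0.290, without labelled knockout library 4). Labelled knockout library 1 held the least Il33 of the brown libraries (0.413 CPM). Library 2, high in Irf4, held Il33 within the wild-type range (1.75 CPM). The part of Il33 in the Irf4 level was not tested.

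Irf4 messages made up 0.186%, 0.0770% and 0.212% of all counts in labelled knockout libraries 2, 3 and 4. There it ranked 43rd, 134th and 37th among all genes by count. In labelled knockout library 1 its share was 0.00493% and its rank 4019. The highest of the 4 labelled knockout libraries exceeded the lowest 46.1-fold. Among 13552 genes with a mean of at least 1 CPM in that group, this placed Irf4 at position 72, where the median gene differed 1.48-fold.

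In inguinal fat the order of the groups was the other way round. Inguinal wild-type libraries 1 to 4 held 44.2, 120, 314 and 251 CPM of Irf4, against 30.9, 29.6 and 35.6 CPM in the knockouts (libraries 2 to 4). Every knockout library lay below every wild-type library, and the group means were 32.0 ± 3.18 CPM (SD, n = 3) and 182 ± 123 CPM (SD, n = 4). The log2 change of -2.49 (SE 0.72) lay just outside the threshold (edgeR adjusted p = 0.0507). When wild-type library 1, the lowest of its group, was left out, the log2 change was -2.83 and passed (edgeR adjusted p = 0.00258).

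The spread of Irf4 also differed by group. Inguinal wild type spanned 7.10-fold from lowest to highest, which placed Irf4 at position 7 of 13426 genes in that group, where the median gene spanned 1.21-fold. Inguinal knockout spanned 1.20-fold, close to the median gene of that group (1.24-fold). Library 1 was the lowest in each of the 3 groups that have one. Ordered by mean, Irf4 ran from brown labelled knockout through inguinal wild type and brown wild type to inguinal knockout. Each neighbouring pair in that order overlapped in range.

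The knockout effect on Irf4 differed between depots: the log2 change in inguinal minus that in brown fat was -6.18 (SE 1.37, edgeR adjusted p = 0.0171). Leaving out inguinal knockout library 2 or 3 ended the call (edgeR adjusted p = 0.0525 and 0.0624), with the log2 difference at -6.16 and -6.12.

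**Figure D2:**
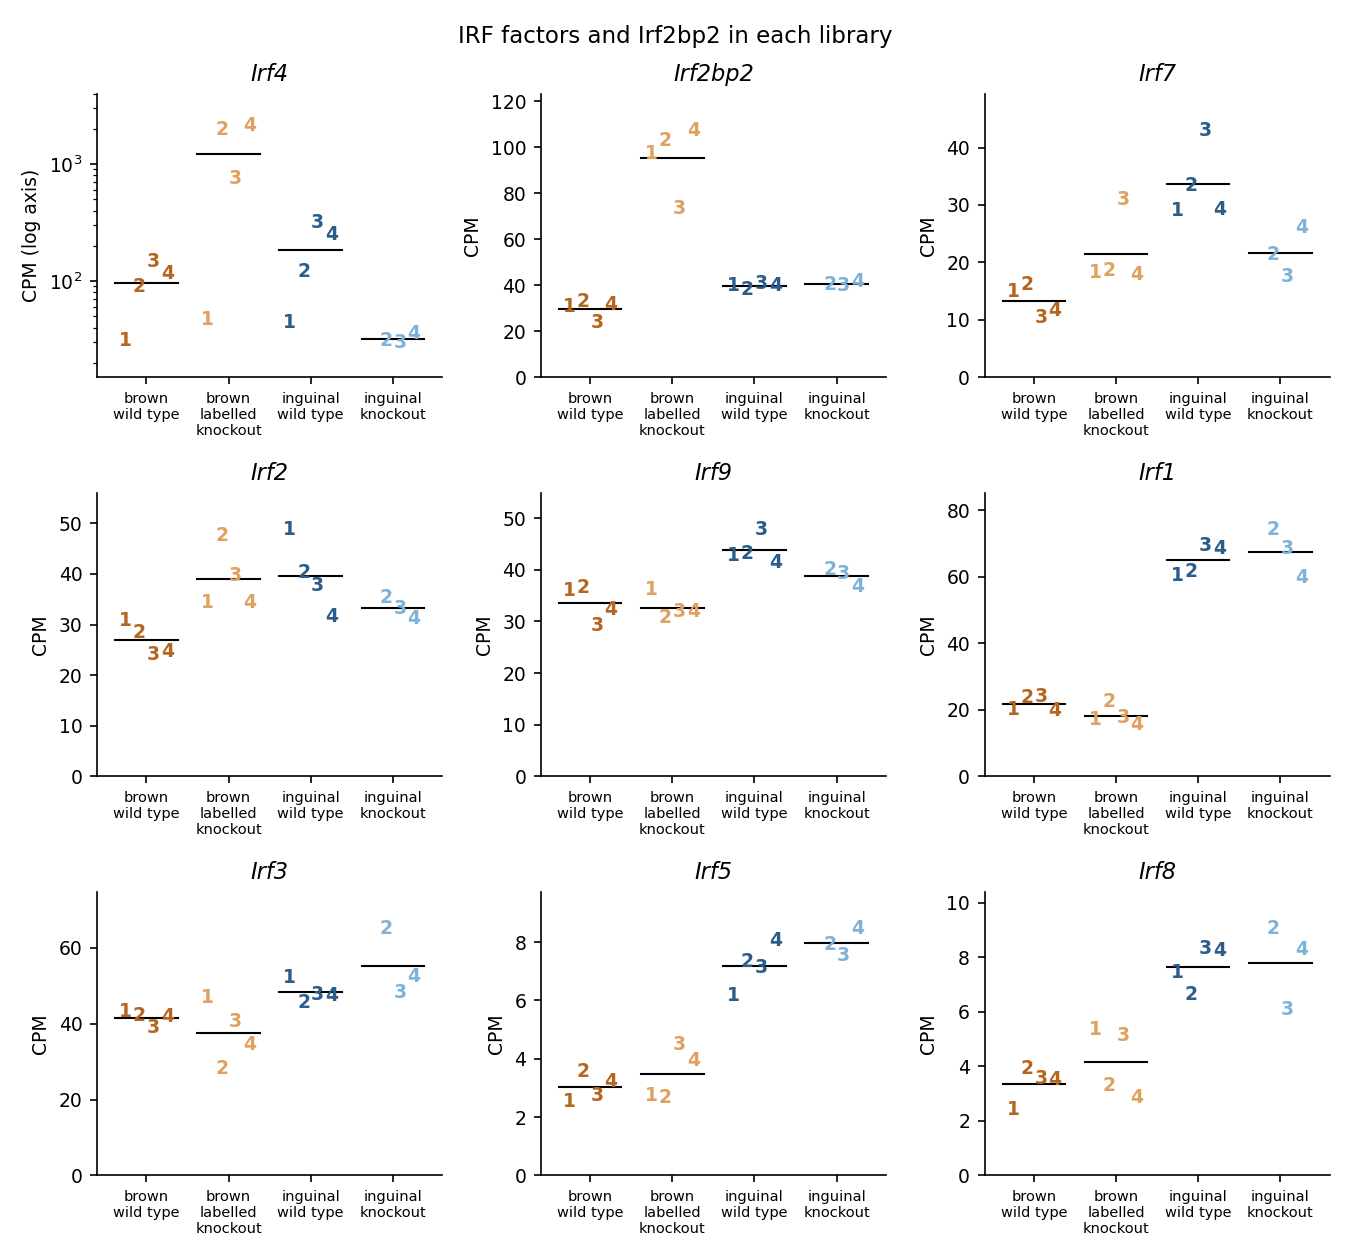
CPM of each of the 9 genes in every library, grouped by depot and genotype; digits are library numbers and lines are group means, on a log axis for Irf4 and on linear axes from 0 for the rest. Irf4 in brown labelled knockout splits into library 1 at 46.5 CPM and 3 libraries at 749 to 2144 CPM, while Irf2bp2 has all 4 at 73.3 to 107 CPM.

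Partners, regulators and reported targets of IRF4 in adipocytes made up a list of 10 genes. In brown fat none of the 10 passed by edgeR, and the list's median log2 change was 0.00 against 0.01 over all genes. At an unadjusted p under 0.05, 2 were higher and 1 lower, where 18.5% of all genes passed in either direction. DESeq2 called 1 higher and limma-voom 2 higher and 1 lower, where they called 1032 and 3127 of all genes. Foxo1, an insulin-restrained activator of Irf4 transcription in adipocytes, was at 102, 211, 153 and 201 CPM in labelled knockout libraries 1 to 4 and at 98.0 to 128 CPM in wild type (log2 change 0.58, edgeR adjusted p = 0.192). Pnpla2, the first triglyceride lipase, was at 2229, 3618, 3710 and 3331 CPM against 1989 to 2479 CPM (log2 change 0.55, edgeR adjusted p = 0.138). In both genes labelled knockout library 1 lay among the wild-type libraries and the other 3 above them, the same split of libraries as for Irf4. Library 1 also stood apart over many other genes: 41 genes passed the brown test with it and 2905 without it.

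Dio2, the deiodinase that activates thyroid hormone, was at 13.4, 67.3, 15.5 and 199 CPM in labelled knockout libraries 1 to 4 and at 4.10 to 40.6 CPM in wild type (log2 change 1.69, edgeR adjusted p = 0.360). Ucp1, the uncoupling protein of brown fat, was at 1558, 3234, 1870 and 3236 CPM in labelled knockout and at 2481 to 6779 CPM in wild type (log2 change -0.94, edgeR adjusted p = 0.220). The 3 libraries high in Irf4 held Ucp1 within or below the wild-type range. The part of Irf4 in the Ucp1 level was not tested.

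In inguinal fat, where Irf4 was low in all 3 knockout libraries, 4 of the 10 genes rose and none fell, where 15.3% of all genes passed as higher. The median log2 change was 0.30 against -0.02 over all genes. Ucp1 rose (log2 change 1.24, SE 0.17, edgeR adjusted p = 0.000382), from 602 to 1050 CPM in wild type to 1621 to 2099 CPM in knockout. Pnpla2 rose by 0.71, Ppara, a fatty acid receptor, by 0.56, and Cidea, a lipid droplet protein, by 0.55 (edgeR adjusted p = 0.00144, 0.0226 and 0.00862). Ppargc1a, Prdm16, Foxo1, Lipe, Abhd5 and Dio2 did not pass. The count was 6 of 10 without wild-type library 3, and 3 of 10 without knockout library 2 or 3 or wild-type library 1 or 2. Ppara lost its call in those 4 fits (edgeR adjusted p up to 0.158) and with all 4 groups in 1 fit.

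IRF4 and IRF8 bind DNA in blood cells with partner factors, and none of 8 partner genes passed by edgeR in either depot. In brown fat 1 was higher and 1 lower at an unadjusted p under 0.05, where 18.5% of all genes passed in either direction. DESeq2 called 1 and limma-voom 2, all higher, where they called 1032 and 3127 of all genes. In inguinal fat the count was 0 by an unadjusted p, DESeq2 and limma-voom alike. Batf3, an AP-1 factor that pairs with IRF4 and IRF8 in dendritic cells, was at 0.138, 1.37, 0.731 and 1.83 CPM in brown labelled knockout. Wild-type libraries were at 0.117 to 0.430 CPM (log2 change 2.19, SE 0.70, edgeR adjusted p = 0.155). Its order over the labelled knockout libraries was that of Irf4, with libraries 4 and 2 highest and library 1 within the wild-type range.

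Markers of the blood cells that make IRF4 were set beside these values. In brown fat 11 B-cell markers summed to 4.38 to 10.9 CPM in labelled knockout and 9.76 to 11.04 CPM in wild type. The sums were 7.47, 9.28 and 4.38 CPM in labelled knockout libraries 2, 3 and 4, where Irf4 was at 1964, 749 and 2144 CPM. Brown macrophage markers (13) summed to 308, 438, 425 and 370 CPM in labelled knockout libraries 1 to 4. Wild-type libraries were at 313 to 378 CPM. For the macrophage markers the median log2 change was 0.37 and none passed by edgeR. Of these limma-voom called 6 higher and 2 lower, and 3127 of all genes. Plasma cell markers summed to 123 to 161 CPM in labelled knockout and 90.4 to 140 CPM in wild type. Dendritic markers summed to 60.2 to 80.2 and 61.6 to 75.0 CPM. In inguinal fat the B-cell sum was 88.3 to 109 CPM in knockout and 121 to 184 CPM in wild type, with a median log2 change of -0.89 over the 11 markers. Of the 11, 3 passed as lower by edgeR, where 13.3% of all genes did. The count was 0 without knockout library 2 or 3 or wild-type library 2, and 7 without knockout library 4. Of 5 plasma cell markers Xbp1 and Jchain fell in inguinal fat, by 0.48 and 1.85 on the log2 scale. Jchain rested on 33 counts in knockout and did not pass by limma-voom (adjusted p = 0.0726). Inguinal wild-type libraries 1 to 4 had B-cell sums of 146, 184, 121 and 128 CPM. Irf4 was at 44.2, 120, 314 and 251 CPM in these libraries. The part of these cells in the Irf4 result was not tested.

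The 5 genes most like Irf4 within groups were Adamts4, Fcf1, Pim3, Amigo2 and Elovl3. Likeness was Pearson's r of log2 CPM after each group's mean was subtracted, over 15 libraries and 13274 genes. The libraries share depth and composition across genes, so r is a description. It was 0.965 for Adamts4, an aggrecan-cleaving protease, 0.950 for Fcf1, a ribosome assembly factor, 0.949 for Pim3, a serine/threonine kinase, 0.944 for Amigo2, an adhesion protein, and 0.931 for Elovl3, a fatty acid elongase of brown fat. Within inguinal libraries alone it was 0.779 to 0.947. Pim3 was at 60.2, 204, 139 and 202 CPM in brown labelled knockout and 40.0 to 73.5 CPM in brown wild type. It was at 122 to 162 CPM in inguinal wild type and 79.7 to 86.8 CPM in inguinal knockout. Its inguinal knockout libraries lay above all brown wild-type libraries, while the mean of Irf4 was lowest in inguinal knockout. Elovl3 did not follow Irf4 between groups, at 54.5 to 93.9 CPM in inguinal knockout and 1.95 to 7.02 CPM in inguinal wild type. Irf2bp2 varied apart from Irf4 (r 0.013), and among the IRFs r ran from -0.702 (Irf3) to 0.438 (Irf5).

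**Figure D3:**
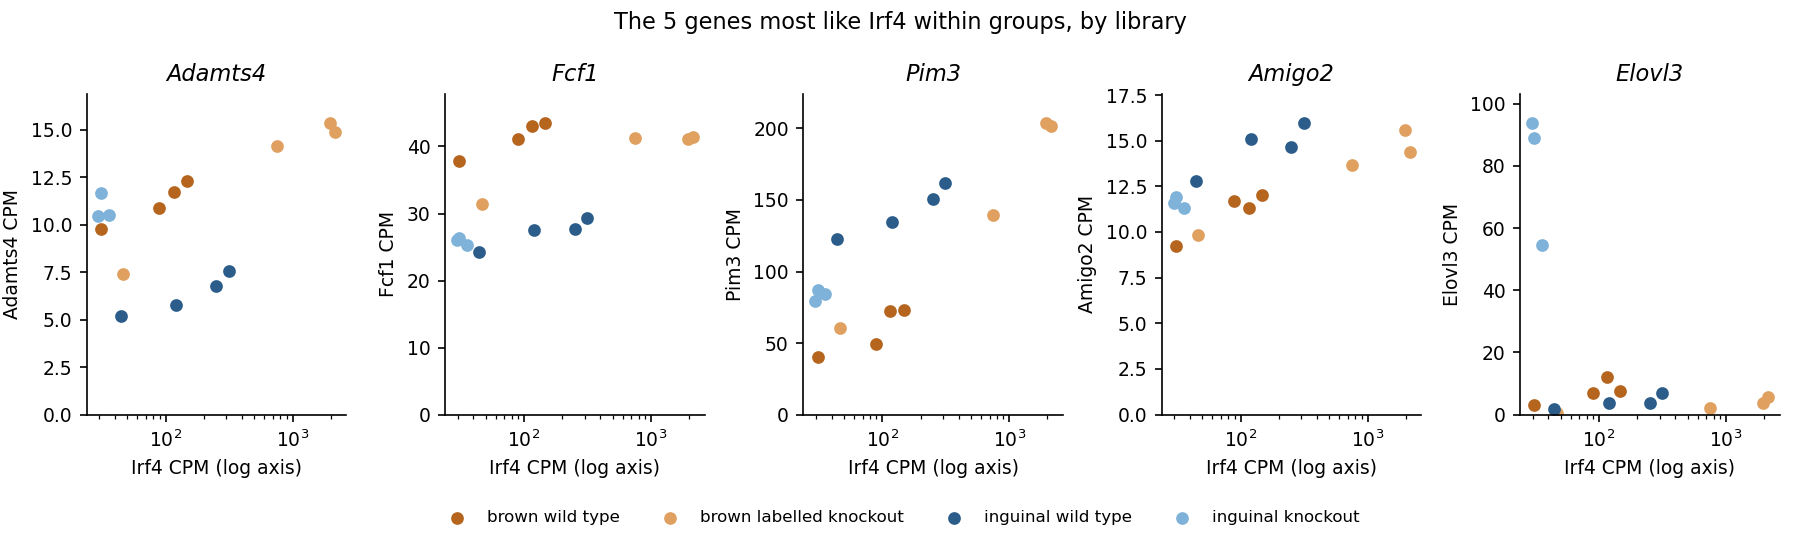
CPM of the 5 genes most like Irf4 within groups (linear axes from 0) against Irf4 CPM (log axis), 1 point a library, coloured by group. In each of the 3 groups with a library 1, that library is lowest both in Irf4 and in all 5 genes. The 5 were chosen for following Irf4 within groups, so this is a description. The groups sit at different heights, as for Elovl3, where inguinal knockout is at 54.5 to 93.9 CPM.

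Irf2bp2, the corepressor, had no such split. It was at 97.2, 103, 73.3 and 107 CPM in brown labelled knockout libraries 1 to 4 and at 31.0, 33.1, 23.7 and 31.5 CPM in brown wild type. All 4 labelled knockout libraries, library 1 included, lay above all wild-type libraries. The means were 95.2 ± 15.2 CPM and 29.8 ± 4.18 CPM (SD, n = 4 each), a ratio of 3.19, and the fitted log2 change was 1.67 (SE 0.15), the value that chose the gene. In inguinal fat Irf2bp2 was at 40.0, 38.4, 40.8 and 40.1 CPM in wild type and at 40.2, 39.8 and 41.5 CPM in knockout. These groups overlapped, and the log2 change was 0.04 (SE 0.08, edgeR adjusted p = 0.770). The inguinal minus brown effect was -1.65 (SE 0.17). In order of level, brown labelled knockout came first, the inguinal groups followed and did not separate, and brown wild type was lowest, below all inguinal libraries.

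Its paralogues Irf2bp1 and Irf2bpl are related corepressor genes. Irf2bp1 was at 7.12 to 13.5 CPM in brown and 10.9 to 15.2 CPM in inguinal libraries and passed in neither depot (edgeR adjusted p = 0.827 and 0.930). Irf2bpl rose in inguinal knockout: it was at 20.2, 21.9 and 18.7 CPM in knockout and at 10.5, 12.3, 8.85 and 10.9 CPM in wild type. No library overlapped, and the log2 change was 0.94 (SE 0.12, edgeR adjusted p = 0.000112), a call that held in every alternative fitted. In brown fat Irf2bpl was at 26.5, 12.1, 18.7 and 13.5 CPM in labelled knockout and at 9.20 to 14.5 CPM in wild type (log2 change 0.59, edgeR adjusted p = 0.249). The difference between depots did not pass (0.33, SE 0.31, edgeR adjusted p = 0.526).

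The genes most like Irf2bp2 within groups were Kpna2, a nuclear import receptor (r 0.908), B4galt5, a galactosyltransferase (0.898), Sh3pxd2b, an adaptor protein (0.858), Tgif1, a homeobox repressor (0.853), and Ncbp1, a cap-binding protein (0.851). These came from the brown libraries, where r was 0.904 to 0.970, while over the inguinal libraries r ran from -0.281 to 0.523. In the brown libraries, Irf2bp2 was lowest in library 3 of each genotype. Inguinal Irf2bp2 spanned 38.4 to 41.5 CPM.

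Genes induced within minutes of a stimulus were higher in the same brown libraries. Of 15 immediate early genes 5 rose and none fell in brown fat, where 0.184% of all genes passed as higher, with a median log2 change of 1.38 against 0.01 over all genes, and their sum was 533 to 776 CPM in labelled knockout and 237 to 331 CPM in wild type. Fos, an AP-1 subunit, was at 18.4, 20.8, 14.8 and 16.7 CPM in labelled knockout and at 1.38 to 3.58 CPM in wild type. DESeq2 called 12 of the 15 and limma-voom 14, where they called 1032 and 3127 of all genes. With 1 library left out edgeR called 0 to 12: 0 without wild-type library 2, 2 without wild-type library 3, 3 or 4 without any of the other 5 wild-type and labelled knockout libraries, and 12 without labelled knockout library 1. Over all genes edgeR called 2905 without labelled knockout library 1. The part of the immediate early genes in the Irf2bp2 level was not tested.

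Irf7, which amplifies interferon production, was the only member that passed in inguinal fat. It was at 29.0, 33.3, 43.0 and 29.3 CPM in wild type and at 21.4, 17.6 and 26.1 CPM in knockout. All 3 knockout libraries lay below all wild-type libraries, and the log2 change was -0.61 (SE 0.16, edgeR adjusted p = 0.0106). This was 1 of the 9 members tested, where 28.6% of 15710 genes passed in this comparison. The median log2 change of the 9 was 0.04, against -0.02 over all genes. Without knockout library 2 or 3 the call was lost (edgeR adjusted p = 0.0647 and 0.0551).

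In brown fat Irf7 was at 18.3, 18.6, 30.9 and 17.8 CPM in labelled knockout and at 15.02, 16.2, 10.5 and 11.6 CPM in wild type. All 4 labelled knockout libraries lay above wild type, with library 3 far above the other 3. The log2 change was 0.68 (SE 0.22) and did not pass (edgeR adjusted p = 0.155). The inguinal minus brown difference was -1.31 (SE 0.30, edgeR adjusted p = 0.0137), and it was lost without inguinal knockout library 3 (edgeR adjusted p = 0.0503). In order of mean, inguinal wild type (33.6 CPM) stood above inguinal knockout (21.7) and brown labelled knockout (21.4), which overlapped, and brown wild type (13.3) was lowest. Irf7 overlaps Phrf1 on the other strand, and the sources used here do not give the strand setting of the counting, so reads of the pair may not be separate.

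Irf2, the competing repressor, showed the same opposite order at smaller size. It was at 34.3, 47.6, 39.6 and 34.4 CPM in brown labelled knockout and at 30.8, 28.4, 24.0 and 24.6 CPM in brown wild type, without overlap. The log2 change was 0.53 (SE 0.14, edgeR adjusted p = 0.112). It passed without labelled knockout library 1 (0.58, edgeR adjusted p = 0.0147) and with no other library left out. In inguinal fat Irf2 was at 35.3, 33.2 and 31.2 CPM in knockout and at 48.8, 40.4, 37.7 and 31.5 CPM in wild type, with overlap (log2 change -0.24, SE 0.13, edgeR adjusted p = 0.177). The difference between depots was -0.78 (SE 0.20, edgeR adjusted p = 0.0248). It was lost without brown wild-type library 3 or 4 or inguinal knockout library 3 or 4 (edgeR adjusted p up to 0.0679).

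Across the 8 IRFs, none passed in brown fat by edgeR, where 0.260% of 15796 genes did. At an unadjusted p under 0.05 Irf2, Irf4 and Irf7 were higher, 3 of 8 against 18.5% of all genes. DESeq2 called Irf2 and Irf4, where it called 1032 of all genes. The limma-voom fit, which gave each library its own weight, called all 3, where it called 3127 of all genes. Without labelled knockout library 1 edgeR also called these 3, where it called 2905 of all genes. With any other brown library left out edgeR called none of the 8. For the difference between depots 3 of 8 passed, Irf2, Irf4 and Irf7, each more negative in inguinal fat, where 4.20% of 16858 genes passed in the negative direction.

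**Figure D4:**
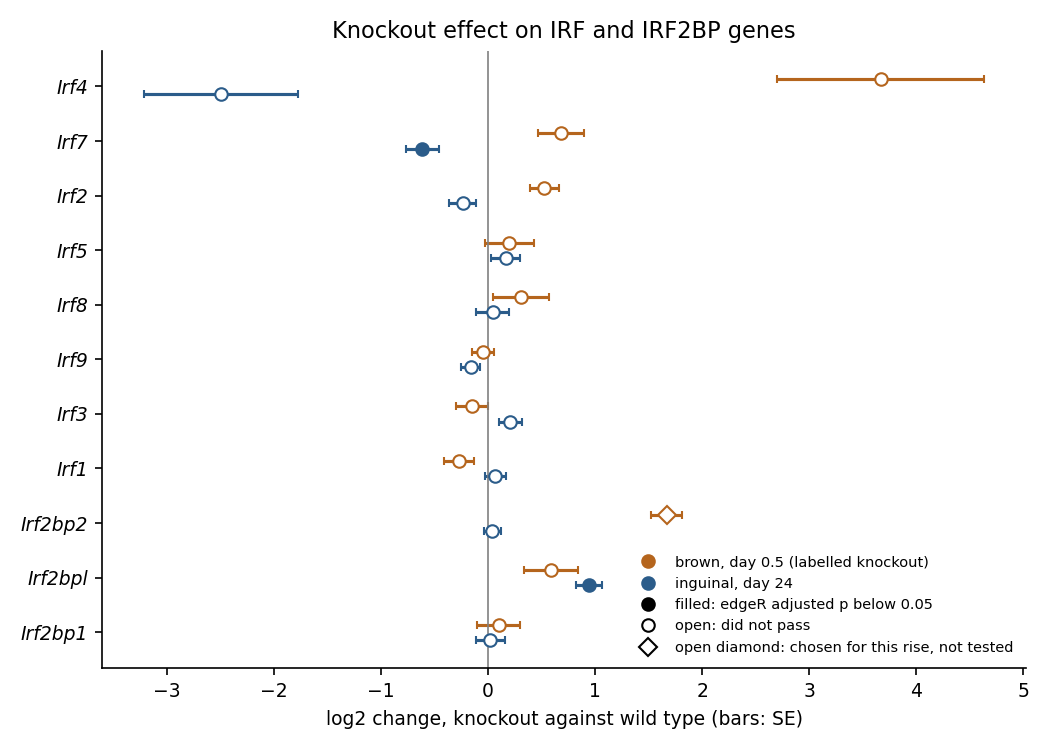
Log2 change between knockout and wild type for the 9 genes, Irf2bp1 and Irf2bpl in brown (labelled knockout) and inguinal fat, with SE bars; filled points passed at an edgeR adjusted p below 0.05, and Irf2bp2 in brown is marked as not tested. Irf4 is at 3.67 and -2.49, Irf7 at 0.68 and -0.61, and Irf2bp2 at 1.67 and 0.04.

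None of the remaining IRFs passed in a knockout comparison. Irf9, the DNA-binding part of ISGF3, was at 40.1, 39.4 and 36.7 CPM in inguinal knockout and at 42.7, 43.2, 47.8 and 41.5 CPM in wild type. The groups did not overlap, but the log2 change of -0.16 (SE 0.09) missed the threshold (edgeR adjusted p = 0.185). In brown fat Irf9 was at 30.7 to 36.1 CPM in labelled knockout and 29.3 to 36.7 CPM in wild type (log2 change -0.05, SE 0.11, edgeR adjusted p = 0.844). Irf3, which responds to cytosolic nucleic acid, was at 28.2 to 46.9 CPM in brown labelled knockout and 39.0 to 43.1 CPM in wild type (log2 change -0.15, SE 0.15, edgeR adjusted p = 0.615). In inguinal fat it was at 48.1 to 65.1 CPM in knockout and 45.7 to 52.3 CPM in wild type (log2 change 0.21, SE 0.11, edgeR adjusted p = 0.163). Irf9 overlaps Rnf31, and Irf3 overlaps Bcl2l12, so their counts may include reads of the neighbour.

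Irf1, the activator induced by interferon gamma, was at 15.5 to 22.4 CPM in brown labelled knockout and 19.7 to 23.9 CPM in wild type (log2 change -0.27, SE 0.14, edgeR adjusted p = 0.327). In inguinal fat it was at 59.7 to 74.2 CPM in knockout and 60.4 to 69.4 CPM in wild type (log2 change 0.07, SE 0.10, edgeR adjusted p = 0.658). Irf5, a macrophage factor for inflammatory cytokines, stood at 2.55 to 4.49 CPM in brown and 6.15 to 8.47 CPM in inguinal libraries. Irf8, which directs monocyte and dendritic cell development, stood at 2.41 to 5.37 CPM in brown and 6.09 to 9.06 CPM in inguinal libraries. Neither passed in a knockout comparison (edgeR adjusted p from 0.396 to 0.876). Irf5 overlaps Tnpo3 on the other strand, whose summed count was 38511 against 2859 for Irf5, so its level is uncertain. In inguinal fat 1 of 13 macrophage markers fell (Itgam) and 2 of 9 dendritic markers fell (Bst2, also an interferon target, and Cd209a), where 13.3% of all genes passed as lower. Without knockout library 3 Itgam and Cd209a lost their calls (edgeR adjusted p = 0.0614 and 0.0538). None of 10 T-cell markers passed there by edgeR, DESeq2, limma-voom or an unadjusted p under 0.05.

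Most targets of ISGF3, the complex that holds IRF9, fell in inguinal knockout fat. Of 22 ISGF3 target genes 18 fell and none rose, with a median log2 change of -0.80 against -0.02 over all genes, where 13.3% of all genes passed as lower. Their sum was 278 to 300 CPM in knockout and 385 to 540 CPM in wild type. Ifit3, which sequesters viral RNA with its relatives, was at 9.26, 7.87 and 9.58 CPM in knockout and at 16.6 to 28.4 CPM in wild type (log2 change -1.28, SE 0.17, edgeR adjusted p = 0.000181). Bst2, the virion tether, was at 25.2, 26.4 and 37.1 CPM against 53.0 to 74.2 CPM (log2 change -1.02, edgeR adjusted p = 0.000320). Zbp1, a sensor of Z-form nucleic acid, fell by 1.07 on the log2 scale, and Xaf1, a proapoptotic target, fell by 0.77 (edgeR adjusted p = 0.000122 and 0.000354). The count was 14 to 19 of 22 when any 1 library was left out. In the same inguinal libraries 7 of 8 skeletal muscle markers fell, from a sum of 115 to 326 CPM in wild type to 34.6 to 40.0 CPM in knockout. The 9 dendritic markers summed to 97.8 to 130.2 CPM in wild type and 70.9 to 83.3 CPM in knockout. Bst2, which is in both lists, made up 53.0 to 74.2 CPM and 25.2 to 37.1 CPM of these sums, so they are not separate from the ISGF3 fall. The part of these cells in the fall of Irf7 and of the ISGF3 targets was not tested.

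In brown fat none of the 22 passed by edgeR, and the median log2 change was 0.25 against 0.01 over all genes. At an unadjusted p under 0.05, 6 were higher and none lower, where 18.5% of all genes passed in either direction. DESeq2 called 1 higher, and limma-voom 4 higher and 1 lower, where they called 1032 and 3127 of all genes. Oasl1, a negative regulator of Irf7 translation, was at 4.10, 4.44, 3.65 and 4.63 CPM in labelled knockout and at 1.93, 2.67, 2.21 and 1.91 CPM in wild type, without overlap (log2 change 0.94, edgeR adjusted p = 0.0720). The difference between depots passed as lower for 13 of 22, where 4.20% of all genes did, with a median of -1.06 against -0.07 over all genes.

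**Figure D5:**
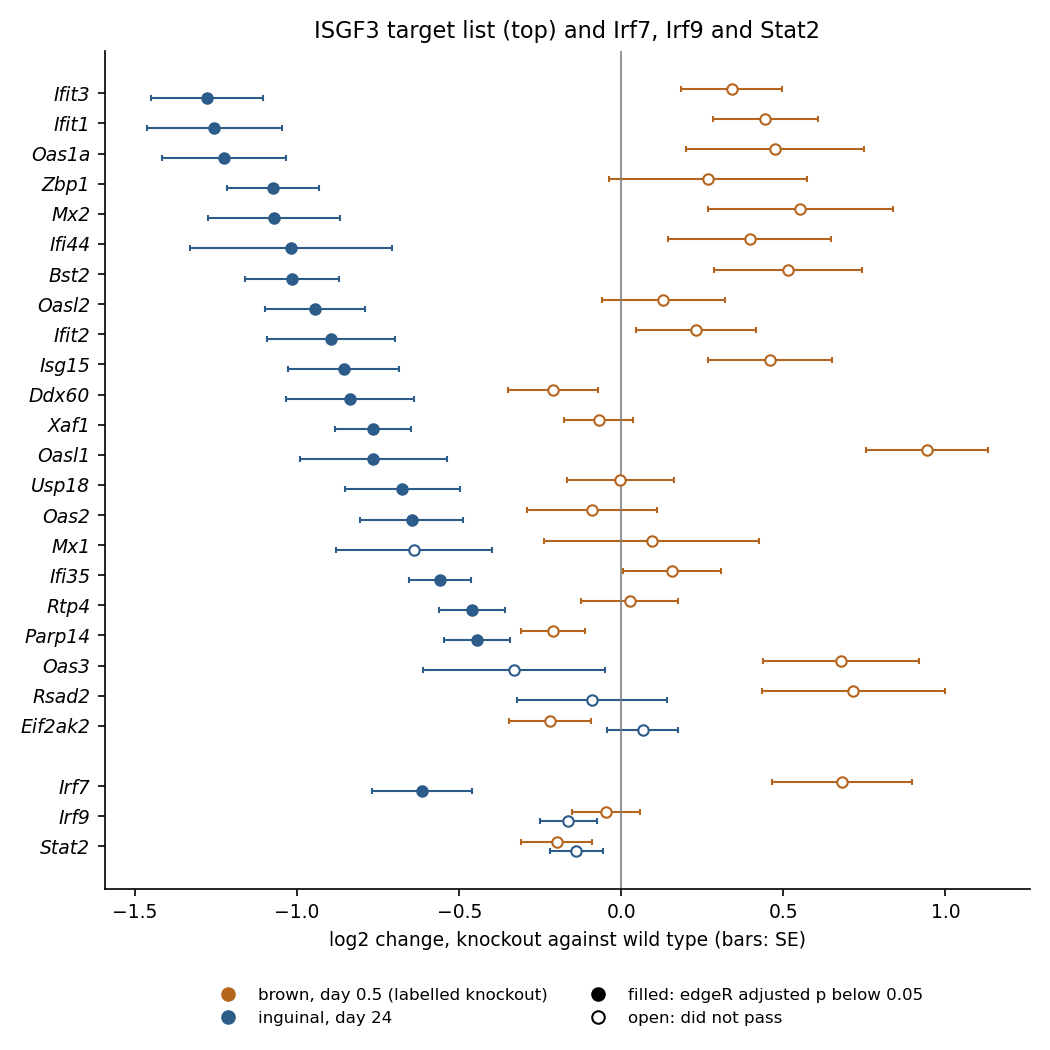
Log2 change between knockout and wild type, with SE bars, for 22 ISGF3 targets and for Irf7, Irf9 and Stat2, in brown and inguinal fat; filled points passed at an edgeR adjusted p below 0.05. In inguinal fat 18 of 22 targets passed below 0, from Ifit3 at -1.28, and Irf7 passed at -0.61.

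IRF9 acts with STAT2 at these targets. Stat2 was at 45.2 to 50.6 CPM in knockout and 52.2 to 55.7 CPM in wild type (log2 change -0.14, SE 0.08, edgeR adjusted p = 0.230). None of 10 genes for interferon receptors, JAK kinases and STAT partners passed in brown fat by edgeR, where Ifngr1, the interferon gamma receptor, was at 213, 399, 385 and 359 CPM in labelled knockout and 177 to 212 CPM in wild type (log2 change 0.82, edgeR adjusted p = 0.0875). At an unadjusted p under 0.05 1 of these was higher and 2 lower, where 18.5% of all genes passed in either direction. DESeq2 called 1 higher, and limma-voom 1 higher and 6 lower, where they called 1032 and 3127 of all genes.

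Upstream of Irf3, Irf5 and Irf7, 4 of 16 sensors, adaptors and kinases rose in inguinal knockout and 2 fell, where 15.3% of all genes passed as higher and 13.3% as lower, with a median log2 change of 0.05. None of the 16 passed as lower without knockout library 3, and 1 or 2 did with any other library left out. The adaptors Ticam1 and Mavs rose by 0.74 and 0.52, Traf3, a ubiquitin ligase before TBK1, by 0.37, and the kinase Irak1 by 0.47 on the log2 scale (edgeR adjusted p from 0.000231 to 0.00943). In brown fat none of the 16 passed by edgeR. At an unadjusted p under 0.05, 1 was higher and 3 lower, where 18.5% of all genes passed in either direction. DESeq2 called 1 lower and limma-voom 4 lower, where they called 1032 and 3127 of all genes. The interferon genes themselves were too low to test. Ifnb1, Ifng, 2 interferon alpha and 2 interferon lambda genes were listed at 0 in all brown and all inguinal knockout libraries, and in inguinal wild type the 6 summed to at most 0.0864 CPM.

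Genes that interferon gamma induces through IRF1 went in both directions in inguinal fat. In the knockout libraries 3 of 15 rose and 5 fell, where 15.3% of all genes passed as higher and 13.3% as lower, with a median log2 change of -0.20. With 1 library left out 1 to 3 were higher and 3 to 6 lower: 1 was higher without knockout library 2, and 3 were lower without wild-type library 2. The chemokine Cxcl9 fell from 24.6 to 37.7 CPM to 8.43 to 11.9 CPM (log2 change -1.59, edgeR adjusted p = 1.79e-05), Gbp3, a guanylate-binding GTPase, fell by 0.54 and Psmb8, an immunoproteasome subunit, by 0.40. Cd274, the checkpoint ligand PD-L1, rose by 0.99 (edgeR adjusted p = 7.58e-05). In brown fat none of the 15 passed by edgeR. At an unadjusted p under 0.05, 2 were higher and 2 lower, where 18.5% of all genes passed in either direction. DESeq2 called 1 in each direction and limma-voom 2 in each direction, where they called 1032 and 3127 of all genes.

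Wild-type brown and inguinal fat differed in most IRFs. Of the 8 tested, 7 were lower in newborn brown fat, where 61.4% of 15979 genes passed in either direction and 30.7% as lower. Irf1 was at 20.1, 23.6, 23.9 and 19.7 CPM in brown and at 60.4, 61.5, 69.4 and 68.6 CPM in inguinal fat (log2 difference -1.57, edgeR adjusted p = 5.44e-08). Irf7 (-1.33), Irf5 (-1.25) and Irf8 (-1.20) followed, with edgeR adjusted p from 2.74e-05 to 6.41e-05. Irf2 (-0.55), Irf9 (-0.38) and Irf3 (-0.22) had smaller differences (edgeR adjusted p = 0.00276, 0.00218 and 0.0146), and Irf3 did not pass without inguinal wild-type library 1 (edgeR adjusted p = 0.0502). Irf4 did not pass, with overlapping groups and a log2 difference of -0.93 (SE 0.69, edgeR adjusted p = 0.282). Irf2bp2 was lower in brown by 0.42 on the log2 scale, without overlap, and was not tested. The blood cell lists moved with these levels: all 11 B-cell markers and 8 of 10 T-cell markers were lower in brown fat, as were 8 of 13 macrophage markers, with 1 higher. Their part in the IRF differences was not tested.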

How the data were processed

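Messenger RNA of 15 libraries was sequenced from TruSeq Stranded mRNA preparations, per the labels' protocols. The deposited values are raw read counts per Ensembl gene, 37991 identifiers of which 32919 were given a symbol. TopHat2 2.1.0, featureCounts, Subread, edgeR and build mm9 are named in the submitters' processing notes with no order; the sources used here give neither the strand setting nor the annotation release. Promoter windows are those of GRCm38.p6 and were not set against coordinates of the counts.

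Samples were grouped by title. Counts were tested with edgeR 4.0.16 (limma 3.58.1, R 4.3.3): TMM scaling, filterByExpr with a minimum count of 10, a robust quasi-likelihood F-test, and Benjamini-Hochberg adjustment over all genes with a threshold of 0.05. Each depot was fitted on its own libraries, wild types across depots likewise, and the difference of knockout effects over all 4 groups. CPM were scaled by TMM over all 15 libraries, and SE was the log2 change over the square root of F. The scripts were tested on simulated data.

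The members and lists were chosen with earlier results of these data known, so lists are given as counts and medians only. Of 191 list entries, 186 matched a symbol. Named genes were the 9 members, Irf2bp1, Irf2bpl, Il33, up to 4 genes of each list with the smallest p in the comparison described, and the 5 most like Irf4 and Irf2bp2 (mean of at least 1 CPM; log2 CPM with a prior count of 2). Named genes outside this rule carry no values or follow from a count, and some genes that the rule takes are not reported here. No 2 libraries of a group agreed within sampling noise (lowest chi-square per degree of freedom 13.7 over 21 pairs). Alternatives were DESeq2 1.42.0, limma-voom, DESeq2 size factors, no filter, a replicate block, all 4 groups in 1 fit, and each library left out. The limma-voom fit weighted each library by its estimated quality.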

Additional observations from a re-analysis of the deposited data

Results flagged for a closer look

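The knockout effect differed between inguinal and brown fat, by the test of the difference itself, for Irf4 (inguinal minus brown -6.18 on the log2 scale), Irf7 (-1.31), Irf2 (-0.78) and the deleted gene Il33 (-2.65). In Irf7, brown labelled knockout library 3 stood far from the other 3 of its group at 30.9 CPM. In brown labelled knockout library 4 the 7 epithelial markers summed to 91.7 CPM, against 5.95 to 9.25 CPM in the other 3. These 2 were the libraries marked among 75 groups of 4 examined with Dixon's test; chance marks about 1 group in 20.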

How the results depend on the processing

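The brown count of 41 genes was 7 with the replicate block, 67 with no filter, 1151 when all 4 groups shared 1 fit, 1032 by DESeq2 and 3127 by limma-voom, and 2 to 2905 when 1 library was left out, with the extremes without wild-type library 2 and without labelled knockout library 1. The members called there, 0, were 3 by limma-voom, 2 both by DESeq2 and in the fit of all 4 groups, and 0 to 3 with 1 library left out. The inguinal count of 4498 was 2249 with all 4 groups in 1 fit and 3274 to 4719 with 1 left out; the members called, 1, were 2 by DESeq2, limma-voom and the replicate block, 0 with all 4 groups in 1 fit, and 0 to 2 with 1 left out. The difference count of 1517 was 2351 by DESeq2, 3696 by limma-voom and 632 to 3571 with 1 left out, with 0 to 3 members called. Causes were not tested.

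Small effects changed sign. With limma-voom Irf2bp1 was at -0.0081 in brown fat and 0.041 for the difference, and Irf8 at -0.035 in inguinal fat. With 1 library left out, values ran from -0.045 to 0.25 for Irf2bp1 in brown fat, from -0.014 to 0.16 for Irf1, -0.082 to 0.19 for Irf8 and -0.067 to 0.13 for Irf2bp1 in inguinal fat, and from -0.16 to 0.097 for Irf5 and -0.24 to 0.042 for Irf2bp1 for the difference. Irf4 was called in inguinal fat by DESeq2, limma-voom and the replicate block (adjusted p = 0.00125, 0.0212 and 0.0201), and in the wild-type comparison only with the block (adjusted p = 0.00154). Irf7 was not called in inguinal fat with all 4 groups in 1 fit (adjusted p = 0.0668), and Irf3 not in the wild-type comparison (0.173).

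Same-numbered libraries correlated at -0.0359 to 0.141 in brown and -0.0722 to 0.0332 in inguinal fat (4 and 3 pairs), and at -0.0388 to 0.0296 between wild-type brown and inguinal fat (4 pairs), so the numbers were not taken to pair them; 3 of 4 and 0 of 3 knockout libraries correlated best with their own number. Genes at a few CPM, such as Irf5 and Irf8, rest on fewer reads than the rest.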

Other observations

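Irf4 took the same order in both wild-type groups: library 1 was lowest, then 2, then 4, then 3 (31.0, 89.3, 116 and 147 CPM in brown, 44.2, 120, 251 and 314 CPM in inguinal fat). The labels do not say whether same-numbered libraries share an animal, day or batch, and no knockout group followed this order.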
